A study of Mus musculus with 19 samples.

Results

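The interaction between body site and tissue compartment was measured in mouse embryos, as the difference between urogenital sinus epithelium (UGE) and urogenital sinus mesenchyme (UGM) minus the difference between epidermis and dermis. All 19 of the 19 arrays of the series entered this contrast. The urogenital sinus contributed 11, of which 6 held UGE and 5 UGM, and the skin contributed 8, split evenly into 4 epidermis and 4 dermis arrays. No array was chosen by its values. All embryos were of the C57BL/6 strain at embryonic day 16, and the labels name no transgene and no agent for any group. Each array held RNA of a pool of embryos, and because the back skin came from embryos that also gave urogenital sinus, pools of different groups may share embryos. Trypsin was used to separate UGE from UGM, whereas skin was kept in cold dispase overnight before its layers were pulled apart by hand. Site and separation method therefore cannot be told apart in any value of the interaction. P-values measure the spread between these pools.

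The urogenital sinus is an endodermal tube from which the prostate and parts of the bladder neck and urethra form, and its mesenchyme instructs the growth of prostatic buds in response to androgen. The epidermis is an ectodermal epithelium that at this stage is stratifying and building hair follicles with the dermis beneath it. Both pairs are thus an epithelium resting on a signalling mesenchyme, and the contrast asks which genes part the compartments to another extent, or the other way round, at the 2 sites.

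Values were log2 intensities, and a difference of 1 log2 unit is a 2-fold difference in intensity. A positive interaction means that UGE minus UGM was higher than epidermis minus dermis, and is called higher here. A negative one is called lower. A call needs an adjusted p under 0.01 (limma, Benjamini-Hochberg over 41549 probe sets) and a size over 1 log2 unit. Array medians ran from 76.2 to 81.6 in intensity, and pairs of arrays of 1 group correlated at 0.96 to 0.997 across probe sets. Detection calls were not used, so that low levels are not shown to lie above background. In tissue pools such as these, fewer cells of a type and less RNA per cell cannot be told apart.

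The compartment difference changed between the sites for 3870 of 41549 probe sets, 9.31% of those tested, of which 2139 were higher and 1731 lower. Read from 1 probe set per gene, 2248 of 17360 genes were called (12.9%), with 1308 higher (7.53%) and 940 lower (5.41%). The counts called in the gene lists below stand against this 12.9%. The most frequent pattern was a compartment difference called at the urogenital sinus and not in the skin, in 834 genes, followed by the reverse in 740 genes. Another 345 genes differed the same way at both sites but by different amounts. In 245 genes neither site's difference was called alone. In 84 genes, 0.484% of those tested, the called differences of the 2 sites ran in opposite directions. Over all genes the median interaction was 0.0369, the median urogenital difference 0.0238 and the median skin difference 0.00633.

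**Figure D1:**
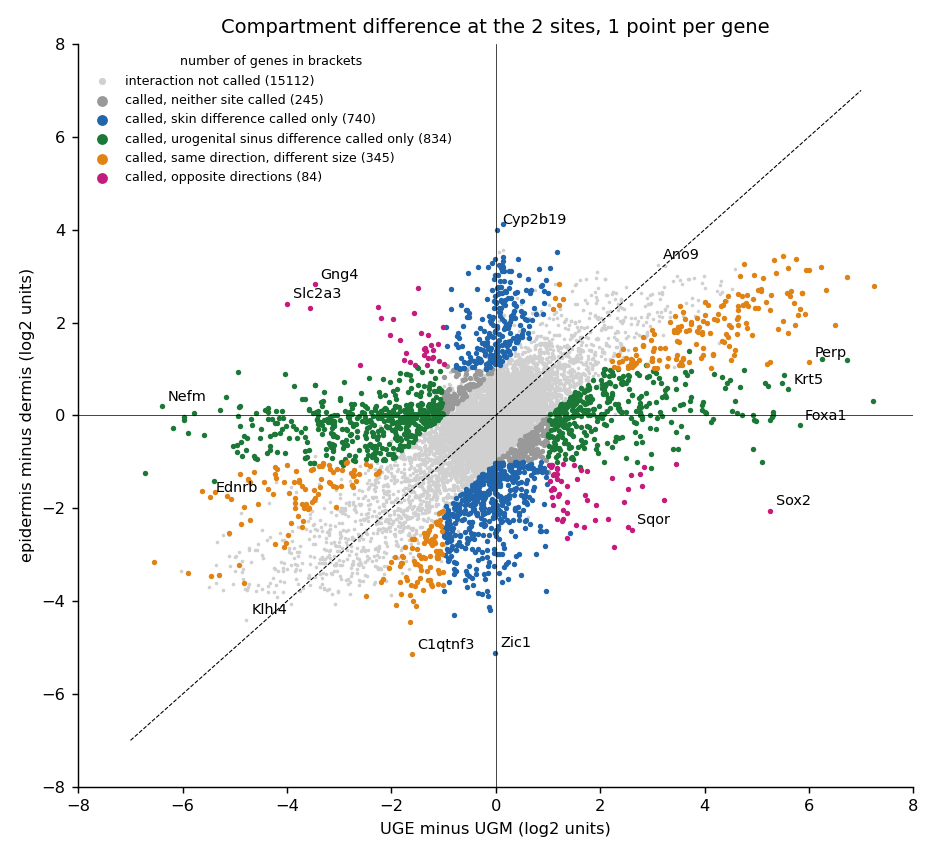
Each point is 1 of 17360 genes, with UGE minus UGM on the horizontal axis and epidermis minus dermis on the vertical axis, both in log2 units. Colours give the class of the called interactions. The 84 genes with opposite directions lie in the upper left and lower right quadrants, and genes on the dashed line differ by the same amount at both sites.

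The 2248 called genes were also sorted by tissue. In 304 of them UGE lay above each of the other tissues by a called difference, in 445 UGM did, in 250 epidermis and in 283 dermis. Genes low in 1 tissue numbered 109 for UGE, 186 for UGM, 259 for epidermis and 15 for dermis. Of 106 called genes chosen by the naming rule 58 had several tested probe sets. In 35 of these at least 1 probe set did not share the call, among them Ednrb, Eya1, Fn1, Gng4, Pgr, Slc2a3, Tbx20 and Tyr, and in none was a probe set called the other way.

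The labels were checked against lists of marker genes, and each tissue carried the markers of its own compartment. The median level of 29 epithelial adhesion and keratin genes lay at 10.58 to 10.97 in UGE and at 10.23 to 10.67 in epidermis, against 6.08 to 7.71 in UGM. Dermis stood between, at 8.35 to 9.24, and its summed intensity of these genes was 39501 to 82433 against 3360 to 8084 in UGM. The median of 27 mesenchymal matrix and regulator genes was 12.01 to 12.27 in UGM and 12.42 to 12.80 in dermis. It was 9.53 to 10.75 in epidermis and 6.11 to 9.98 in UGE, with UGE replicates 2 and 3 at the upper end. Epithelial transcripts stood higher in every dermis array than in any UGM array. Mesenchymal transcripts stood higher in epidermis than in UGE apart from UGE replicates 2 and 3, which overlapped epidermis. Their part in the smaller skin differences was not tested.

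**Figure D2:**
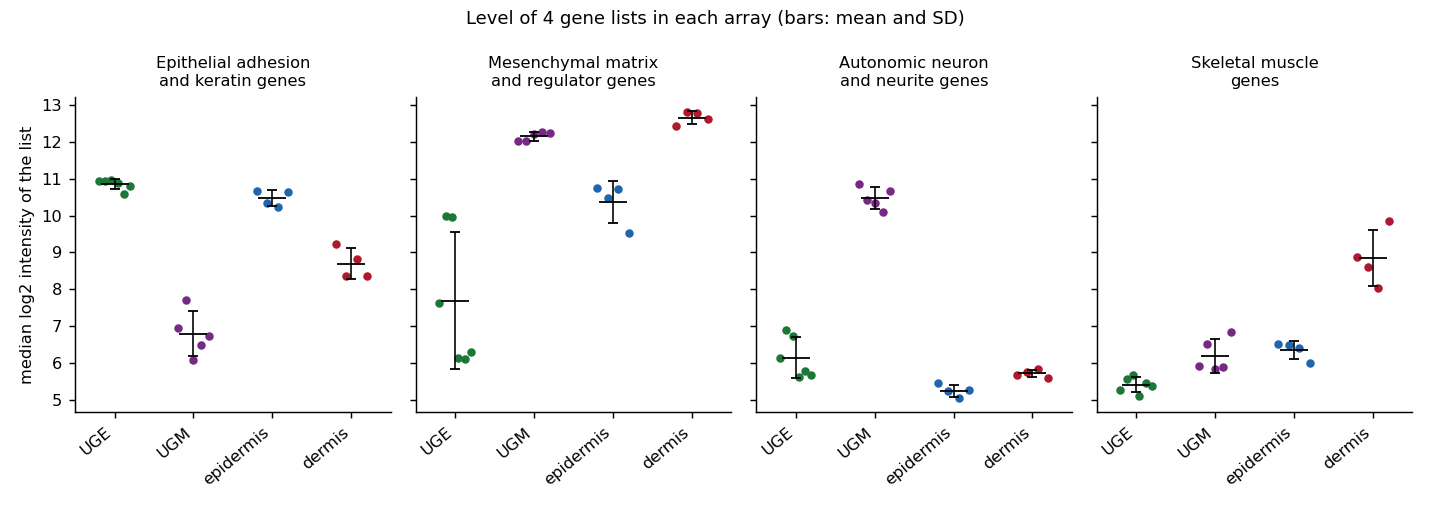
Median log2 intensity of 4 gene lists in each array, by tissue, with bars at the mean and SD. Dermis holds epithelial genes at 8.35 to 9.24, above UGM in every array, while neuronal genes are high in UGM alone and muscle genes in dermis alone.

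Counts were repeated without 5 arrays together. These were UGE replicates 2 and 3, highest of their group in mesenchymal genes, UGM replicate 2 and dermis replicate 1, highest of theirs in epithelial genes, and epidermis replicate 1, which correlated least with its group. Then 4699 probe sets were called, of which 3671 were among the 3870. All of these kept their direction, which the shared arrays nearly fix in advance. Opposite directions were found in 161 probe sets instead of 125, and the same direction with another size in 782 instead of 502. Epidermis replicate 4, the lowest epidermis array in mesenchymal genes at 9.53, was kept in that count. Without epidermis replicate 4 alone 3642 probe sets were called, with 117 in opposite directions and 444 in the same direction with another size.

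Of the genes high in UGE, the largest interactions were 7.31 for Sox2, 6.92 for Clca1, 6.11 for Tspan8 and 6.03 for Foxa1. Tspan8 was called in 4 of its 5 probe sets. Genes high in UGE included forkhead factors of endoderm and genes of the urothelium. Of 18 measured urogenital sinus epithelial and urothelial genes, 13 were called higher and none lower, at a median interaction of 2.81, a median urogenital difference of 4.33 and a median skin difference of 0.56. Foxa1, a pioneer factor of endodermal epithelia, lay at 12.97 to 13.35 in UGE with a median of 13.15. Its UGM values were 7.29, 8.65, 7.05, 6.69 and 6.99. The epidermis values of Foxa1 were 5.36, 5.47, 5.39 and 5.51, and those of dermis 5.75, 5.65, 5.79 and 5.38. Every UGE array stood above every other array, and the skin layers lay close together. The interaction of Foxa1 was 6.03 ± 0.36 (SE, limma adjusted p = 5.63e-10), from a urogenital difference of 5.82 and a skin difference of -0.21.

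Clca1, a secreted protein of mucous epithelia, had an interaction of 6.92 ± 0.48, with UGE at 11.49 to 12.53 and all 8 skin arrays at 3.61 to 4.26. The related factor Foxa2 lay at 10.18 to 10.64 in UGE and at 4.80 to 5.42 in every other array, and its interaction was 5.31 ± 0.16. Upk3a, a uroplakin of the urothelial plaque, gave 5.26 ± 0.27. Hoxb13, a posterior homeobox factor of the prostate, gave 5.05 ± 0.29 and lay at 4.92 to 5.72 in all arrays of the other tissues. The ligand Shh, which signals from epithelium to mesenchyme, was at 13.19 to 13.71 in UGE, and its interaction was 5.64 ± 0.40. In the skin Shh ran slightly the other way, at 8.35, 8.10, 7.93 and 8.52 in epidermis and 8.85, 8.97, 8.88 and 9.07 in dermis, a difference of -0.72 that was not called. The other tested probe set of Shh was not called, at 0.21. The keratins Krt7 and Krt19 and the uroplakin Upk1b separated the compartments at both sites, with skin differences of 3.18, 3.12 and 3.44, and were called because the urogenital differences were larger still, at 5.61, 5.95 and 5.51.

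Among genes high in UGM, neuronal genes led. The pelvic ganglia, which hold autonomic neurons, lie in the tissue around the sinus. Of 24 autonomic neuron and neurite genes 21 were called lower and 1 higher, at a median interaction of -3.45. Nefm, a neurofilament subunit, lay at 12.04, 11.91, 11.94, 11.94 and 11.95 in UGM and at 4.94 to 6.29 in UGE with a median of 5.52. In epidermis Nefm read 4.48, 4.81, 4.94 and 4.66, and in dermis 4.28, 4.59, 4.57 and 4.64. The UGM arrays stood apart from all 14 others, and the skin layers overlapped. The interaction of Nefm was -6.60 ± 0.26 (limma adjusted p = 5.21e-12). The partner subunit Nefl gave -5.48 ± 0.49 and the peripheral filament Prph -5.93 ± 0.39, although another probe set of Prph lay at 0.04. Snap25, of the synaptic fusion machinery, gave -5.94 ± 0.18 and the peptide Calcb -5.88 ± 0.27. The autonomic identity factor Phox2a gave -4.33, the neuropeptide Vip -5.10 and the noradrenaline enzyme Dbh -2.64. Th, which makes the catecholamine precursor, and Uchl1 were not called, at -0.90 and 0.19. Gata2 went against the list at 1.77 ± 0.26, since it was mesenchymal at both sites and more so in skin on the log2 scale. On the linear intensity scale the sign of Gata2 turned.

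Smooth muscle and visceral regulators were the other groups high in UGM. Of 14 smooth muscle genes 8 were called lower and 1 higher, and the summed intensity of the list was 34168 to 36800 in UGM against 11945 to 14297 in dermis. Myh11, smooth muscle myosin, lay at 10.56, 10.50, 10.38, 10.34 and 10.21 in UGM, at 5.15 to 5.64 in UGE, and at 5.90, 6.02, 5.74 and 6.31 in dermis. Its epidermis values were 5.05, 5.17, 5.2 and 5.39. Only UGM was high for Myh11, and the interaction was -4.16 ± 0.18 (limma adjusted p = 8.92e-12), while its other probe set lay at -0.10. Pcp4 gave -4.68 ± 0.20 and calponin Cnn1 -4.60 ± 0.33.

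Of 21 visceral and caudal mesenchyme regulators 8 were called lower and 2 higher. Tbx20 gave -4.55 ± 0.13 and the organ regulator Eya1, listed with the dermal and trunk genes, -4.46 ± 0.19. Tcf21, a factor of visceral mesenchyme, lay at 12.83, 12.88, 12.86, 12.82 and 12.99 in UGM and at 4.41 to 4.78 in all skin arrays. In UGE it spread from 5.41 to 9.92 with a median of 7.45, and its interaction was -5.41 ± 1.15. Without UGE replicates 2 and 3 the interaction of Tcf21 was -6.56. Hand2, which acts in autonomic neurons and visceral mesenchyme, gave -3.98 ± 0.96, and lost its call without UGM replicate 1, epidermis replicate 1 or dermis replicate 1, with values of -4.45 to -3.62 over all arrays left out in turn. Its call was also lost with a replicate block, a term for the replicate number shared by arrays, at a limma adjusted p of 0.0125 with the block in skin only, 0.0135 within each site and 0.0127 across all groups. Hand2 was called in 1 of its 3 probe sets, with another at -0.30. Osr1 went the other way at 3.76 ± 0.36, being as high in UGE as in UGM and 3.53 lower in epidermis than in dermis.

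Genes high in epidermis included those of the barrier and a few of pigment cells. Of 24 epidermal differentiation and barrier genes 7 were called lower, which here means a larger epidermal excess, and 4 higher. The median interaction of the list was -0.42 and turned sign under some settings, between -0.89 and 0.11. Cyp2b19, a keratinocyte arachidonate oxygenase, lay at 8.20, 9.35, 9.92 and 10.23 in epidermis and at 6.43, 4.43, 4.70 and 6.15 in dermis. The same gene lay at 3.93 to 4.28 in UGE and at 4.13, 4.23, 3.99, 4.10 and 4.10 in UGM. Epidermis stood above all other arrays, with dermis replicates 1 and 4 next. Its interaction was -3.97 ± 0.52 (limma adjusted p = 1.33e-05). Aadacl2fm1 gave -3.99 ± 0.29. Alox12b, a lipoxygenase needed for the skin barrier, gave -3.34 ± 0.65, and in dermis it spread from 6.01 to 9.67, again highest in replicates 1 and 4. Elovl4, which elongates very long fatty acids, gave -3.59 ± 0.43, and the lipid transporter Abca12 and the desmosomal Dsg1a gave -2.43 and -2.98. These genes showed urogenital differences of -0.86 to 0.14.

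Part of the same barrier list ran the other way. Cers3, a ceramide synthase, differed by 6.33 at the urogenital sinus and by 2.71 in skin, an interaction of 3.63 ± 0.50. On the linear scale the sign of Cers3 turned. Sprr1a, a cornified envelope precursor, gave 2.31 and its neighbour Sprr1b -2.82, since Sprr1b did not part UGE from UGM. Krt1 and Lor gave 1.79 and 1.56. Of 11 melanocyte genes 3 were called lower and 1 higher, and the lower calls ranged from 0 to 4 over the alternative settings. Dct was called lower at -1.80, and its call was lost when any 1 of 16 arrays was left out. Tyr, the enzyme that starts pigment synthesis, gave -1.57 ± 0.25 and was called in 1 of its 3 probe sets, with another at -0.08. Kit gave 1.91 ± 0.35 in the other direction. Pgr, the progesterone receptor, lay at 8.52, 8.85, 9.23 and 9.0 in epidermis and at 7.17, 5.09, 6.40 and 6.16 in dermis. In UGE it spread from 7.30 to 8.22 and in UGM from 7.57 to 8.06. The sinus compartments overlapped and the skin layers did not, and the interaction of Pgr was -2.77 ± 0.40. It was the 1 called gene of 8 on its list of steroid receptors, 12.5% of the list against 12.9% of all genes.

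Genes high in dermis included trunk patterning factors, skeletal muscle and macrophages. Of 18 dermal and trunk mesenchyme regulators 8 were called higher and 1, Eya1, lower. Zic1, a zinc finger factor of dorsal trunk tissue, lay at 9.77, 10.47, 10.60 and 9.76 in dermis and at 4.43, 5.80, 5.44 and 4.50 in epidermis. In UGE it ranged from 3.41 to 3.87 with a median of 3.57, and in UGM the values were 3.47, 3.53, 3.78, 3.67 and 3.68. Dermis stood more than 3 log2 units above every other array, and the urogenital compartments did not part. The interaction of Zic1 was 5.09 ± 0.33 (limma adjusted p = 1.77e-09). The limb and trunk factors Shox2 and Tbx15 gave 4.00 and 3.18 with urogenital differences of -0.12 and -0.24. Rpl39l gave 4.08 ± 0.31.

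Of 20 skeletal muscle genes 16 were called higher and none lower, at a median urogenital difference of -0.57 and skin difference of -3.08. Back skin carries a sheet of striated muscle below the dermis. Myh8, the perinatal myosin, read 8.20, 7.81, 7.53 and 9.48 in dermis and 4.43 to 5.0 in epidermis, and both urogenital compartments lay at 3.89 to 4.40. Dermis was the high tissue, and the interaction was 3.33 ± 0.36. Summed over the list, dermis held 19097 to 39636 and epidermis 2092 to 2901 in intensity. Of 15 macrophage genes 7 were called higher and none lower, with F13a1 at 2.13 ± 0.32 and the scavenger receptor Cd163 at 2.07 ± 0.18. With 50 added to each intensity before the logarithm Cd163 fell to 0.86, under the fold required for a call. The summed macrophage level was 16101 to 19554 in dermis and 4194 to 5866 in UGM. Lyve1, a receptor of lymphatic vessels and tissue macrophages, gave 2.80 ± 0.45 and C1qtnf3, a secreted protein, 3.55 ± 0.38. Both were mesenchymal at both sites, by 1.64 and 1.6 at the sinus and by 4.45 and 5.15 in skin in favour of mesenchyme.

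**Figure D3:**
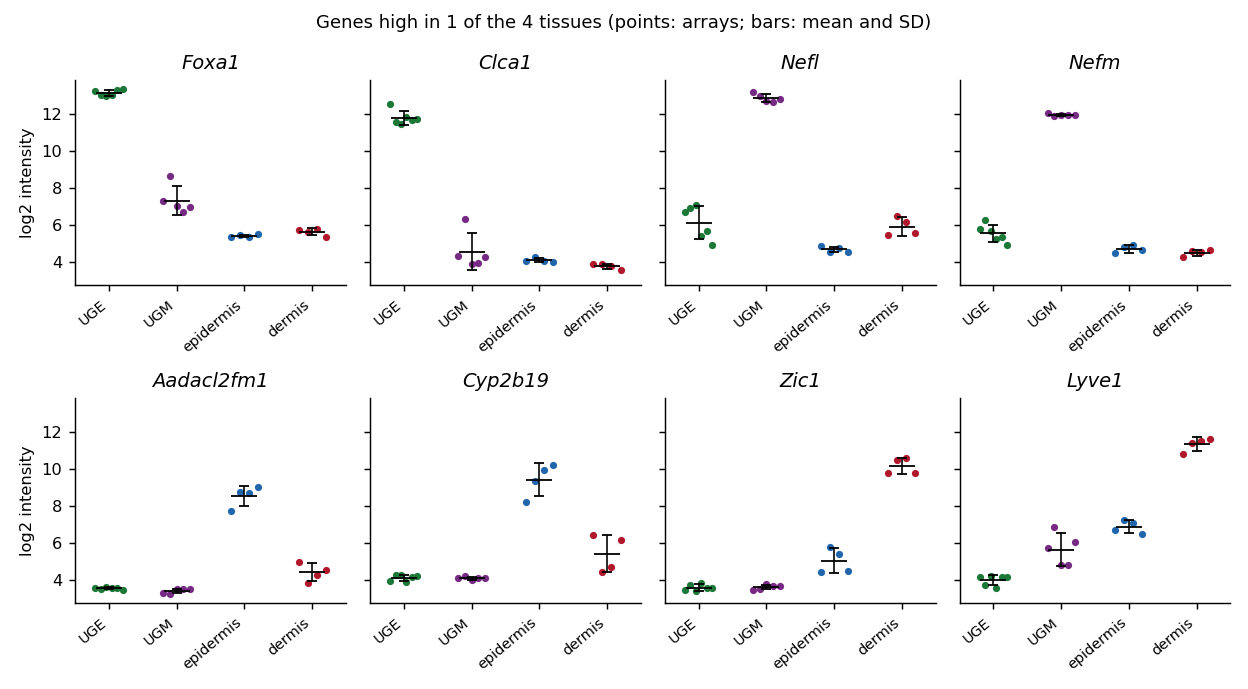
Log2 intensity of 8 genes in every array of the 4 tissues, with bars at the mean and SD. Foxa1 and Clca1 are high in UGE, Nefl and Nefm in UGM, Aadacl2fm1 and Cyp2b19 in epidermis and Zic1 and Lyve1 in dermis, and UGE values of Foxa1 lie at 12.97 to 13.35.

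The promoters of these 1-tissue genes were read from RefSeq (GRCm38.p6) to show what sequence lies upstream of the leading genes. For each tissue the leading gene with an entry is shown, passing over genes of a chromosome kept out of the printing. The stretch shown is the 250 bases before the start of transcription on the gene's strand. Clca1, Nefl and Nefm had no entry and are named only. Capitals mark CACCTG, GCCNNNGGC and TGTTTAC on either strand.
Foxa1, UGE, minus strand, chr12:57546112-57546361: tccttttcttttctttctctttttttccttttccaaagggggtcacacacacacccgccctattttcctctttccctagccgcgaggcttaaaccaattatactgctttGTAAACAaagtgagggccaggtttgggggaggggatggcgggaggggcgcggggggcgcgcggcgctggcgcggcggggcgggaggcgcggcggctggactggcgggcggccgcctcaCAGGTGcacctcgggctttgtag
Prph, UGM, plus strand, chr15:99054924-99055173: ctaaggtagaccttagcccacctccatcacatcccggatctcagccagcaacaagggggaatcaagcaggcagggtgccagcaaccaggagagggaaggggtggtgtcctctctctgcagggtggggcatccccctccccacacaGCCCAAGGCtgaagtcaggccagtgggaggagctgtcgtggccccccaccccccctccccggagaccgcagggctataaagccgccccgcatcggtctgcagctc
Aadacl2fm1, epidermis, plus strand, chr3:59924964-59925213: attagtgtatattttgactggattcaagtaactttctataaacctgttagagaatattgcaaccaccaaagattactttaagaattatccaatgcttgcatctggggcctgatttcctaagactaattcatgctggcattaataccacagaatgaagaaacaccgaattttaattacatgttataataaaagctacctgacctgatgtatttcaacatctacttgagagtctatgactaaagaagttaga
Zic1, dermis, minus strand, chr9:91365769-91366018: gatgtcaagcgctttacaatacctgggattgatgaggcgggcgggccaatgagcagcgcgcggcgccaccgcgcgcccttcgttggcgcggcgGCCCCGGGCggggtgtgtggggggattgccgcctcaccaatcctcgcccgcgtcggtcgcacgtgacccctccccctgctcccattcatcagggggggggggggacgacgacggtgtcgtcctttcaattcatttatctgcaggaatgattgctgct

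CACCTG is the core bound by Zeb and Snail repressors, GCCNNNGGC that of Tfap2 factors and TGTTTAC that of forkhead factors. CACCTG is also a case of the general E-box CANNTG, so these shares are not separate. Over the 300-base windows of RefSeq, which add 50 bases after the start, CACCTG was in 34.2% of 228 promoters of genes high in UGE and in 27.6% of 199 high in epidermis. It was in 19.5% of 339 high in UGM and 16.2% of 216 high in dermis, against 20% of all 27025 promoters and 19.6% of 13800 of tested genes. GCCNNNGGC was in 26.3%, 19.6%, 21.2% and 21.8% in the order UGE, epidermis, UGM and dermis, against 23% of tested genes. TGTTTAC was rare in each set, at 3.95%, 4.02%, 2.65% and 1.39% in that order, against 2.76%. CANNTG was in 63.4% to 78.4% of the 4 sets and in 66.5% of tested genes. These shares are a description without a test.

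The 84 genes with opposite directions comprised 53 that were higher in UGE than UGM and lower in epidermis than dermis, and 31 the other way round. All 84 kept their sign on linear intensity, which their selection nearly fixed in advance. Compartments called in opposite order at the sites mostly keep that order on any rising scale, so this count tests little. Sox2, a factor of endodermal and neural progenitors that also marks dermal condensates of hair follicles, was the largest interaction of any gene, at 7.31 ± 0.32 (limma adjusted p = 1.05e-11). It lay at 11.51 to 12.09 in UGE with a median of 11.78, and at 6.59, 7.05, 6.43, 5.91 and 6.64 in UGM. Its epidermis values were 6.21, 6.17, 5.90 and 5.28, below the dermis values of 7.44, 8.36, 8.17 and 7.81. Neither pair of compartments overlapped, and each site's difference ran the other way.

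Sqor, a mitochondrial enzyme of sulfide oxidation, turned round by nearly equal amounts, with differences of 2.61 and -2.46. It lay at 9.5 to 9.85 in UGE and at 7.03, 7.22, 6.96, 6.98 and 7.50 in UGM. Epidermis read 6.44, 6.72, 6.25 and 6.14 and dermis 8.87, 9.01, 8.68 and 8.84. The interaction of Sqor was 5.08 ± 0.18 (limma adjusted p = 1.21e-12), and its other probe set was not called, at 0.24. Lgr5, a receptor for R-spondins that marks epithelial stem cells, gave 4.38 ± 0.19. UGE arrays read 9.38 to 9.97 and UGM arrays 7.35 to 7.61. Epidermis ranged from 5.36 to 6.07 and dermis from 7.94 to 8.18, so that dermis lay above UGM and epidermis below both. The other probe set of Lgr5 was not called, at 0.59. Car2, a carbonic anhydrase, gave 4.93 ± 0.46 and Sytl2, of vesicle transport, 5.10 ± 0.37. Runx1, a factor of blood and hair follicle cells, differed by 3.22 and -1.82, an interaction of 5.04 ± 0.30, although 3 of its 6 probe sets were not called. Hoxa9 differed by 1.36 and -2.65 and was higher in both urogenital compartments than in either skin layer. The other probe set of Hoxa9 was not called, at 0.89.

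Among genes high in UGM and epidermis Gng4, a G protein gamma subunit, gave an interaction of -6.30 ± 0.43 (limma adjusted p = 3.45e-09). It lay at 5.32 to 6.05 in UGE, at 9.23, 9.08, 8.83, 9.01 and 9.42 in UGM, and at 12.55, 12.71, 12.88 and 12.99 in epidermis. In dermis it read 11.35, 8.91, 9.51 and 10.04. Epidermis was highest, UGE lowest, and dermis replicate 1 came nearest to epidermis. Slc2a3, a neuronal and placental glucose transporter, gave -6.41 ± 0.77, with UGE spread from 6.16 to 9.49 around a median of 6.88 and UGM at 11.43, 11.19, 11.42, 11.50 and 11.74. Its skin values were 12.12, 12.50, 12.98 and 12.99 in epidermis and 10.66, 9.61, 10.83 and 9.86 in dermis. The groups of each site did not overlap, and without UGE replicates 2 and 3 the interaction of Slc2a3 was -7.33. Nalcn, a sodium leak channel, gave -5.87 ± 0.31, Tesc, a calcium-binding protein, -4.60 ± 0.57, and the microtubule protein tau, Mapt, -4.30 ± 0.36. Mapt was highest in UGM, at 9.44 to 10.88, and lowest in dermis, at 5.47 to 7.07.

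**Figure D4:**
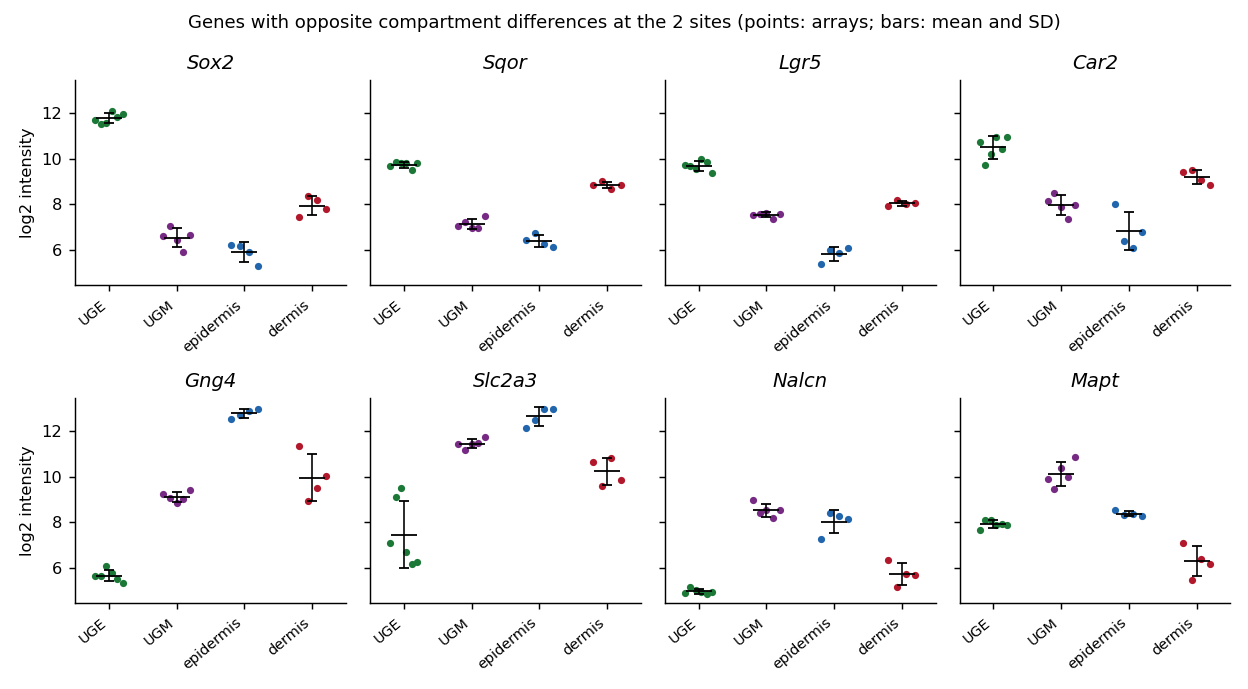
Log2 intensity of 8 genes in every array, with bars at the mean and SD. In the upper row the urogenital epithelium and the dermis are the high compartments, as for Sqor with differences of 2.61 and -2.46, and in the lower row the urogenital mesenchyme and the epidermis are.

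At both sites in the same direction 1513 genes were called, 520 in favour of epithelium and 993 in favour of mesenchyme. Among the epithelial ones the interaction was called for 166, of which 161 had the larger difference at the urogenital sinus and 5 in the skin. Among the mesenchymal ones it was called for 179, and these fell evenly, 91 with the larger difference at the sinus and 88 in skin. Without UGE replicates 2 and 3 together, same-direction calls rose from 502 to 715 probe sets. All higher calls then rose from 2139 to 2259 and all lower ones from 1731 to 2002. How the mesenchymal genes split in that fit was not counted. On linear intensity 65 of the 345 genes changed the sign of the interaction.

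Of 29 epithelial adhesion and keratin genes 20 were called higher and none lower, at a median urogenital difference of 4.33 and skin difference of 1.4. Krt5, a basal keratin, lay at 12.59 to 13.40 in UGE with a median of 12.89 and at 7.11, 8.78, 6.62, 6.92 and 7.05 in UGM. Its epidermis values were 13.90, 13.83, 13.62 and 14.07 and its dermis values 13.76, 12.91, 13.19 and 13.27. UGM was the low tissue for Krt5 and dermis overlapped epidermis. The interaction was 5.03 ± 0.43 (limma adjusted p = 5.79e-08). Trp63, the master factor of stratified epithelia, gave 5.04 ± 0.48, although its other 3 probe sets were not called, and Krt15 gave 5.54 ± 0.65. Perp, a desmosomal protein under Trp63, differed by 6.00 and 1.14, and its sign turned on linear intensity. The kinase Ripk4 gave 4.55 ± 0.48 and the keratin Krt4 4.45 ± 0.67. In UGM replicate 2 Krt5, Krt15 and Krt4 lay above the other UGM arrays, at 8.78, 9.85 and 8.84. Of the whole list, UGM replicate 2 and dermis replicate 1 held the highest levels in their groups, and without UGM replicate 2 and dermis replicate 1 the interaction of Krt5 was 5.24. Serpinb8, a serine protease inhibitor, was 1 of the 5 genes with the larger epithelial excess in skin, at -1.41 ± 0.31. Its call was lost with a replicate block, at a limma adjusted p of 0.019 within each site and 0.0161 across all groups. Zfp185, another of these 5, gave -1.63 ± 0.41 and lost its call when any 1 of 15 arrays was left out. Gsta3, also of this kind at -1.23 ± 0.29, lost its call for any 1 of 6 arrays.

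Of the mesenchymal genes with the larger difference at the sinus, Fabp7, a fatty acid binding protein of glia, gave -4.0 ± 0.32 and the visceral smooth muscle actin Actg2 -3.72 ± 0.58. Ednrb, an endothelin receptor of neural crest derivatives, lay at 4.27 to 5.10 in UGE and 9.89 to 10.4 in UGM, and at 7.31 to 7.96 in epidermis and 9.11 to 9.64 in dermis. Epidermis lay far above UGE while dermis lay just below UGM, and the interaction was -3.71 ± 0.26. Acta1, skeletal muscle actin, gave 2.64 ± 0.39 in the other direction. Of 27 mesenchymal matrix and regulator genes 2 were called higher and 2 lower, at a median urogenital difference of -4.06 and skin difference of -2.86. These calls made up 14.8% of the list, near the 12.9% of all genes. Without the 5 arrays named above the count of this list was 3 higher and 12 lower. Periostin, Postn, gave -4.04 ± 0.36, with epidermis at 12.02, 12.85, 12.90 and 12.99, above all UGM arrays, and UGE at 5.70 to 7.02. On linear intensity the sign of Postn turned. Fibronectin, Fn1, gave 2.55 ± 0.20 since UGE, at 12.08 to 12.45, stood near UGM, at 12.45 to 12.78.

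For 431 genes called in the same direction at both sites, 148 epithelial and 283 mesenchymal, the 95% interval of the interaction lay within 1 log2 unit of 0. Ano9, an anoctamin, differed by 3.11 and 3.25, an interaction of -0.14 with an interval of -0.98 to 0.70. Klhl4 differed by -4.79 and -4.40, with an interval of -0.86 to 0.10. Rasgrp3 differed by -3.75 and -3.79, with an interval of -0.51 to 0.59. Of 16 blood vessel endothelial genes 1 was called, Erg at 1.11 ± 0.25, and its call was lost without epidermis replicate 4, at 0.98, and with a replicate block within each site or across all groups. The other probe set of Erg was not called, at 0.35. The called share of this list was 6.25%, against 12.9% of all genes. The endothelial list was lower in both epithelia, by a median of 2.38 at the sinus and 2.84 in skin. None of 21 cell cycle genes was called with limma, or with unmoderated variances in the same fit of 4 groups, while 8 had an unadjusted p under 0.05 and the median interaction was 0.32. Over all settings 0 to 1 cell cycle genes were called higher. With 12.9% of all genes called, few calls fall in lists this short, and both counts tell little about the members.

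Of 12 Hedgehog pathway genes 2 were called higher, the ligand Shh and the transducer Smo at 1.14, and 4 lower. The lower ones were the effectors and targets Gli2 at -4.38 ± 1.01 and Gli1 at -1.73, the antagonist Hhip at -2.34 and the co-receptor Gas1 at -3.56 ± 0.76, which were mesenchymal at the sinus by 2.71 to 4.82 and less so in skin. UGE arrays read 5.08 to 9.34 for Gli2 and UGM arrays 11.21 to 11.63, while epidermis ranged over 10.94 to 11.26 and dermis over 11.27 to 11.79, so that UGE alone was low. The call of Gli2 was lost without UGM replicate 2 and dermis replicate 1 together, at -4.42, and with a replicate block within each site, at a limma adjusted p of 0.0116. The call of Gas1 was lost without dermis replicates 1 and 4 together, at a limma adjusted p of 0.013, and 1 of its 3 probe sets lay at 0.10. The receptor and target Ptch1 did not pass, at -0.87. Called genes were 50% of the Hedgehog list, against 12.9% of all genes.

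Of 38 Wnt genes 11 were called higher and 1, the receptor Fzd1 at -1.15, lower. The called share of the Wnt list was 31.6%, against 12.9% of all genes. Over all settings 7 to 11 Wnt genes were called higher and 0 to 5 lower. Without dermis replicates 1 and 4 together the interaction of Fzd1 was -0.92 and its call was lost. The other probe set of Fzd1 was not called, at -0.19. UGE arrays read 12.92 to 13.22 for the ligand Wnt4 and UGM arrays 8.28 to 9.08, while epidermis ranged over 11.85 to 12.08 and dermis over 10.36 to 11.31, an interaction of 3.30 ± 0.23. The ligands Wnt7b and Wnt10a were epithelial at the sinus and gave 1.87 and 2.33, as did the receptor Fzd6 at 2.54. The inhibitors Wif1, Dkk1 and Sfrp2 and the receptor Ror2 were called for their dermal excess, at 3.14, 3.0, 2.22 and 3.10. Dkk1 stood at 8.61, 9.13, 8.94 and 8.75 in dermis and at 5.49 to 6.47 in all other arrays. Of 18 FGF genes 5 were called higher and none lower, with the ligand Fgf1 at 2.23 ± 0.30 and the receptors Fgfr3 at 1.85 ± 0.28 and Fgfr2 at 1.52. The other probe set of Fgfr3 was not called, at 0.36. The called share of the FGF list was 27.8%, against 12.9% of all genes. Over all settings 0 to 8 FGF genes were called higher and 0 to 1 lower.

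Of 31 BMP, activin and TGF-beta genes 3 were called higher and 8 lower, 35.5% of the list against 12.9% of all genes. Over all settings 0 to 4 were called higher and 1 to 11 lower. Among the lower were the activin subunit Inhba at -1.90 ± 0.33, the ligand Bmp5 at -1.54, and the antagonists Sostdc1 at -2.36 ± 0.20, Fst at -1.62 and Chrd at -1.05. The receptors Tgfbr2 and Tgfbr3 were higher, at 1.21 and 1.41. Tgfbr2 was called in 1 of its 3 probe sets, with another at 0.05. The other probe sets of Tgfbr3 and Inhba were not called, at -0.19 and 0.02. Bmp4, a ligand of the urogenital mesenchyme, gave -1.73 ± 0.43 and lost its call when any 1 of 11 arrays was left out, which are all but UGE 1, 2, 3 and 6, UGM 1 and 2, epidermis 4 and dermis 3, with values from -1.95 to -1.56. It was lost with the block in skin only too, at a limma adjusted p of 0.0111, and within each site, at 0.0104. Of 18 Notch genes 1 was higher, the target Hes1 at 1.44, and 2 lower, among them the ligand Jag1 at -1.20, whose call was lost with a block within each site at a limma adjusted p of 0.014. Called Notch genes were 16.7% of the list, near the 12.9% of all genes. Of 18 Eph receptors and ephrins 2 were higher and 4 lower, with Epha5 at -3.67 ± 0.37 and Epha4 at -3.07 ± 0.50. Of 14 posterior Hox genes 3 were higher and 1 lower, the last Hoxc10 at -2.85 ± 0.39. The called shares of the Eph and the Hox list were 33.3% and 28.6%, against 12.9% of all genes.

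**Figure D5:**
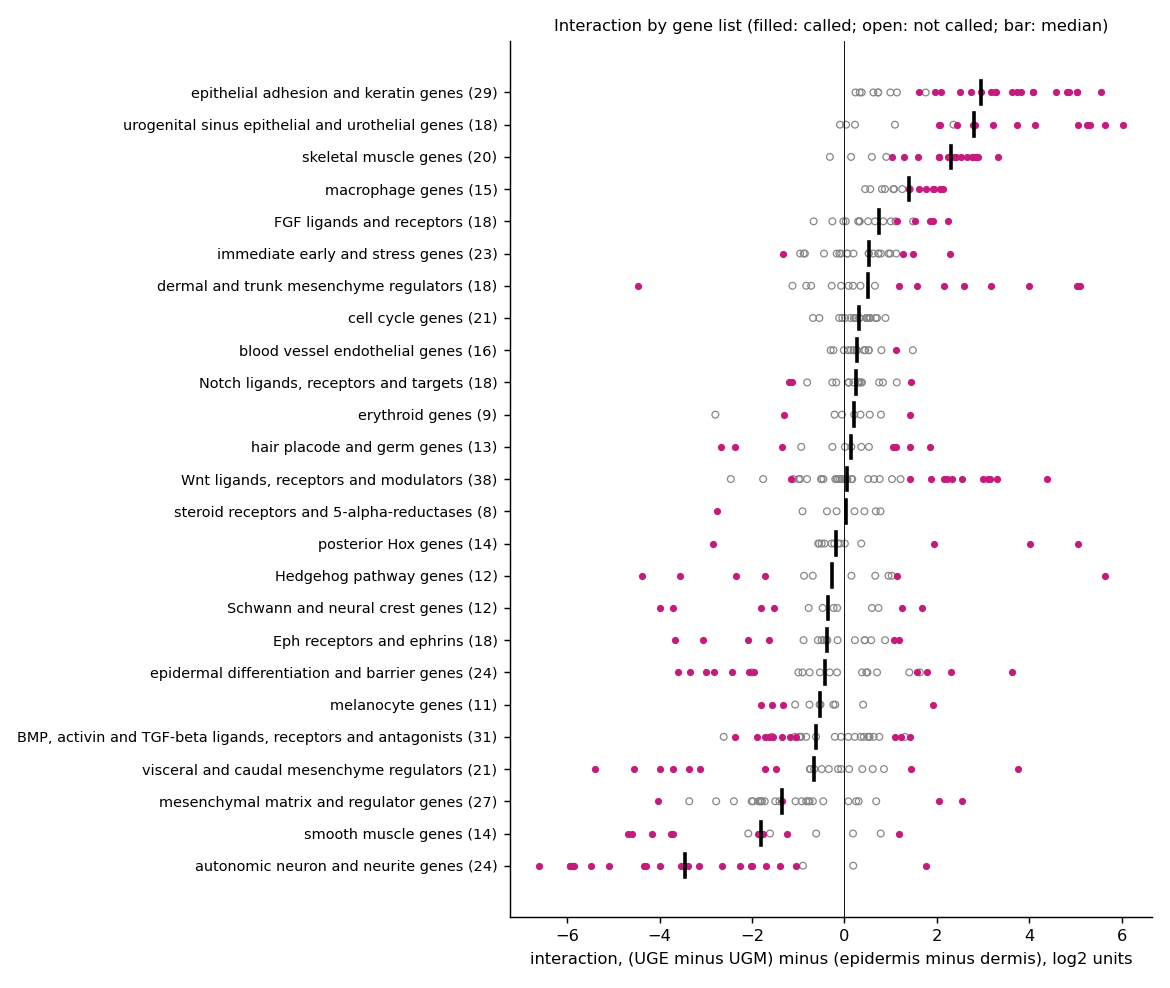
Interaction of each measured member of 25 gene lists in log2 units, with the number of members in brackets. Filled points passed the test, open points did not, and the bar marks the median, from -3.45 for neuronal genes to 2.95 for epithelial adhesion and keratin genes. Over all 17360 genes 12.9% were called.

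Smaller lists gave mixed counts. Of 13 hair placode and germ genes 4 were higher and 3 lower, with the matricellular factor Ccn2 at -2.67 ± 0.49 and Lhx2, a factor of hair germs, at 1.86 ± 0.19, which with 50 added to each intensity was 0.87 and no longer called. Of 12 Schwann and neural crest genes 2 were higher and 4 lower, with the glial factor Sox10 at -1.81 ± 0.26. Sox10 was called in 1 of its 3 probe sets, with another at -0.18. Of 9 erythroid genes 1 was higher and 1 lower, 22.2% of the list against 12.9% of all genes. The median interaction of the erythroid list turned sign over the settings, between -0.135 and 0.348, so that its count tells little about the members. Of 23 immediate early and stress genes 3 were higher and 1 lower, with the chaperone Hspb1 at 2.29 ± 0.42, whose sign turned on linear intensity, and Myc at -1.33 ± 0.25. The called share of this list was 17.4%, against 12.9% of all genes. The summed intensity of these stress genes was 64223 to 87387 in epidermis and 15549 to 33024 in the urogenital compartments, and its part in the interaction was not tested.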

How the data were processed

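RNA of 19 embryo pools (6 UGE, 5 UGM, 4 epidermis, 4 dermis) was amplified over 2 cycles and read on MOE430 2.0 arrays. The authors deposited linear intensity values per probe set, scaled between arrays, from 7.4 to 33140.7. GCOS 1.4 is named in the submitters' processing notes, while no source used here says which algorithm made the table. Amplification can compress low values.

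Values were put on the log2 scale as they stood. The table lists 45101 probe sets, 64 of them controls, which were dropped. Tests were run on the 41549 that exceeded 20 in any sample. Of all probe sets 34945 had 1 gene symbol in the platform annotation, 932 had several and 9160 were unnamed here. Symbols were looked up in RefSeq (GRCm38.p6) by gene identifier. Each of 17360 genes is represented by the tested probe set with that symbol alone that had the highest mean.

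The 4 groups entered 1 fit in limma 3.58.1 (R 4.3.3, lmFit and eBayes, two-sided, Benjamini-Hochberg over all tested probe sets), and the interaction and both site differences are contrasts of it. A call needs an adjusted p under 0.01 and over 1 log2 unit, the thresholds of the study's methods. The number of pools limits the precision of each difference. The script was tested on simulated data.

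Named were the 6 largest called interactions each way, 5 opposite genes each way, 3 of each same-direction kind, 4 genes each way with like differences, 4 per tissue, and up to 3 called members of each of 25 lists with up to 2 against them. Other members named were chosen after their values were seen. The members and lists were chosen with earlier results of these data known.

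Deviations of same-numbered epidermis and dermis samples correlated at 0.343, 0.108, 0.264 and 0.168, all positive but weak. The best match was another number for epidermis 2, dermis 3 and dermis 4, and the labels do not pair the numbers. Deviations of UGE and UGM correlated at 0.648, 0.00619, -0.122, 0.138 and -0.406, with UGE 1 and UGM 1 each the other's best match. Whether pools pair is not settled by this check, and the main fit had no block. Alternatives were unmoderated variances in the same fit, quantile normalization, an added constant of 50, other filters and thresholds, treat, trend and robust variances, array weights, replicate blocks, linear intensity, 1 probe set per gene, and arrays left out. Leaving out several arrays together (other than the pairs of UGM 2 with dermis 1 and UGE 2 with UGE 3) and a block in the skin alone were added after seeing the data.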

Additional observations from a re-analysis of the deposited data

Results flagged for a closer look

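A change of the compartment difference between the sites was called for 2248 genes, and the called differences had opposite signs in 84. Among the named ones the interaction was 5.08 for Sqor, 4.93 for Car2, 5.10 for Sytl2, 4.38 for Lgr5 and 7.31 for Sox2, with UGE and dermis the high compartments. With UGM and epidermis high it was -6.30 for Gng4, -6.41 for Slc2a3, -5.87 for Nalcn, -4.60 for Tesc and -4.30 for Mapt.

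Single arrays stood far from their group in 26 of 456 combinations of a named gene and a tissue, and chance alone puts about 1 in 20 there. UGM replicate 2 did so for 6 genes, with log2 values of 4.53 for Ano9, 6.34 for Clca1, 9.85 for Krt15, 8.84 for Krt4, 8.78 for Krt5 and 4.93 for Serpinb8, each the highest of the UGM arrays. Epidermis replicate 1 did so for 5 genes, at 11.69 for Elovl4, 6.96 for Gata6, 6.21 for Hand2, 12.02 for Postn and 10.64 for Tgfbr3. UGE replicate 1 stood apart for A530047J11Rik at 4.78, Clca1 at 12.53 and Gata6 at 8.42. Dermis replicate 1 stood apart for Hand2 at 6.26 and Prph at 5.73, and dermis replicate 2 for Lhx2 at 6.76. The remaining single values were 8.26 for Acta1 in UGM replicate 5, 7.35 for Lgr5 in UGM replicate 4, 5.97 for Tnnc2 in UGE replicate 2, 3.91 for Klhl4 in UGE replicate 4, 5.46 for Elovl4 in UGE replicate 5, 11.69 for Pdzk1ip1 in epidermis replicate 2, 9.28 for Efna3 in epidermis replicate 3, and 7.53 for F13a1 and 10.11 for Ier3 in epidermis replicate 4.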

How the results depend on the processing

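Calls shared with the reported 3870 kept their direction under every alternative run on the log2 scale. Because these fits share most of their arrays, that outcome was nearly fixed in advance. With each array left out in turn the calls numbered 3615 to 4185, higher 1994 to 2305, lower 1611 to 1880, opposite 114 to 139, same direction 438 to 550, urogenital sinus only 1424 to 1591, skin only 1078 to 1497 and neither 409 to 507. Limma's treat, which tests against 1 log2 unit, left 1083 calls (590 higher, 493 lower), with 16 opposite, 20 same direction, 650 urogenital sinus only, 253 skin only and 144 neither. Adding 50 left 74 opposite and 307 same direction. A median over 50 left 1014 lower and 921 urogenital sinus only. Of 114 named genes 87 passed this filter and kept their result, and the rest were not tested under it. Array weights gave 807 same direction, and leaving out UGE 2 and 3, UGM 2, epidermis 1 and dermis 1 gave 782. With 1 probe set per gene there were 2309 calls (1337 higher, 972 lower), 838 urogenital sinus only, 758 skin only and 257 neither, since fewer features were tested. With the replicate block within each site 3675 probe sets were called, 3537 with a block across all groups and 3858 with a block in the skin alone.

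On linear intensity the interaction turned for Cers3 (-711.8), Fgfbp1 (-1644), Gata2 (-997.7), Hspb1 (-6515), Mal (-1885), Perp (-753.1) and Postn (2034). Of 106 called named genes 12 lost the call with at least 1 array left out, and none turned sign: Bmp4, Dct, Dll1, Ephb3, Erg, Gsta3, Hand2, Ier3, Mal, Serpinb11, Smtn and Zfp185. Under treat 46 lost it, with unmoderated variances 10, with 50 added 8 (Cd163, Dll1, Fgfbp1, Gata6, Ier3, Lhx2, Mal and Smtn), with quantile normalization 3 and with no filter 1. Without dermis replicates 1 and 4 together 12 lost it (Bmp4, Dct, Dll1, Fzd1, Gas1, Gli2, Hand2, Ier3, Mal, Serpinb11, Slc4a1 and Smtn), without UGM 2 and dermis 1 it was 9, without epidermis 1 and dermis 1 6, without UGE 2 and 3 6 and without the 5 arrays 2. The replicate block within each site ended 9 calls (Bmp4, Dll1, Erg, Gli2, Hand2, Jag1, Mal, Serpinb8 and Zfp185), the block across all groups 8 (Dct, Dll1, Erg, Hand2, Ier3, Mal, Serpinb8 and Zfp185) and the block in skin only 4 (Bmp4, Dct, Hand2 and Smtn). The cause was not tested. Low intensities near background limit small differences.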
